A study of Saccharomyces cerevisiae with 6 samples.

Results

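The mitochondrial protein import machinery was read as 38 genes of budding yeast, taken from a fixed list of translocase subunits, their chaperones, the processing peptidase and the matrix folding system. Each of the 38 had exactly 1 probe set in the platform annotation, out of 5449 S. cerevisiae genes measured, so no choice between probe sets was needed. Strain JJ816 served for every culture. Its chromosomes lack HSC82 and HSP82, and the only Hsp90 chaperone came from a plasmid that carried either WT HSC82 or hsc82-W296A, a form with 1 substituted residue. Exponentially growing cells in YPD, a rich glucose medium, gave total RNA from 3 cultures per genotype, each hybridised to 1 Affymetrix array. The sources used here do not give the promoter of the plasmid gene, or whether a genotype came from more than 1 transformant.

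Nearly all mitochondrial proteins are made in the cytosol and enter the organelle through the TOM pore of the outer membrane. From there, presequence proteins pass through TIM23 and are pulled in by the Hsp70 motor, carrier proteins are handed by the small Tim chaperones to TIM22, β-barrel proteins go to SAM, and cysteine-rich proteins of the intermembrane space are trapped by Mia40 and Erv1. In the matrix the presequence is cut off by the Mas1-Mas2 peptidase and the protein is folded by Hsp70 and the Hsp60-Hsp10 chaperonin. Cytosolic Hsp70 delivers many precursors to the receptor Tom70, and in mammals Hsp90 does so as well.

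Values are log2 array signals as deposited, and a change is always hsc82-W296A minus WT Hsc82, with the standard error (SE) of limma's fit and n = 3 arrays per group. A gene was called higher or lower at a Benjamini-Hochberg adjusted p under 0.05 over all 5498 S. cerevisiae probe sets. The label check on HSC82 gave 14.28 ± 0.035 with WT Hsc82 and 14.54 ± 0.016 with hsc82-W296A (SD, n = 3 each), and no probe here reads the substitution itself. The HSP82 probe set read 10.03 ± 0.040 and 10.31 ± 0.055, but RNA of its near-identical copy HSC82 can bind it, so it does not check the deletion. Arrays of 1 genotype correlated at 0.995 to 0.998 and arrays of different genotypes at 0.917 to 0.941. Array medians and mating-type markers moved with the genotype. Median signal ranged from 10.94 to 11.04 in WT Hsc82 and 11.07 to 11.13 in hsc82-W296A for S. cerevisiae probe sets, and from 6.52 to 6.70 and 6.38 to 6.46 for other-species probe sets. Among mating-type markers, 3 of 4 MATalpha genes rose, with a summed linear signal of 855 to 989 in WT Hsc82 and 1840 to 1960 in hsc82-W296A, against 42300 to 44500 and 45500 to 46100 for the 5 MATa genes, of which 2 rose and 2 fell. Of the MATalpha genes, MF(ALPHA)2 was below the background level of 8.14, the 95th percentile of the other-species probe sets, on every array, and MF(ALPHA)1 and STE3, at means of 7.60 and 7.90, were below it on every WT Hsc82 array, so these rises are read against the floor. Their part in the results was not tested. In total RNA of a culture, fewer cells that express a gene and less RNA per cell cannot be told apart.

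Changes of the import genes were small, and the complexes differed in which genes were called. Of the 38 genes, 12 fell and 5 rose, and 21 were not called, so 44.7% were called beside 67.3% of all genes. The share called lower was 31.6%, against 30.3% of all genes, and the share called higher was 13.2%, against 37.1% of all genes. The median change of the import genes was -0.09, while that of all genes was 0.04. None of the 38 changed at least 2-fold, as 8.90% of all genes did upward and 0.863% downward, and the members ranged from -0.40 for TIM54 to 0.63 for SSC1. All 38 read above the background level on every array. The groups did not overlap in 18 genes that were lower and 5 that were higher, or 47.4% and 13.2% of the members, beside 34.1% and 39.5% of all genes.

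How many genes were called depended on the scaling of the arrays. After quantile normalization 22 import genes were lower and 3 higher, after median centring 24 and 3, and under a matched rescaling, which stretches each array to common medians of other-species and S. cerevisiae probe sets, 25 and 2. The shares of all genes called lower moved as well, from 30.3% to 44.6%, 42.3% and 40.6% in the same order, and those called higher from 37.1% to 28.5%, 31.2% and 32.0%. These scalings moved the median of all genes from 0.04 to -0.09, -0.07 and -0.06, and that of the import genes to -0.16, -0.20 and -0.29. With the replicate number as a block 13 were lower and 8 higher. The number higher was 3 without WT Hsc82 replicate 2, 8 without hsc82-W296A replicate 1, 2 without hsc82-W296A replicate 2 and 3 without hsc82-W296A replicate 3. Of the 17 called genes, 9 kept their direction and their call under each of the 19 alternatives run. These were TOM20, TIM12, TIM18, TIM22, TIM54, PAM16, PAM18 and MGE1, which fell, and SSC1, which rose.

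**Figure D1:**
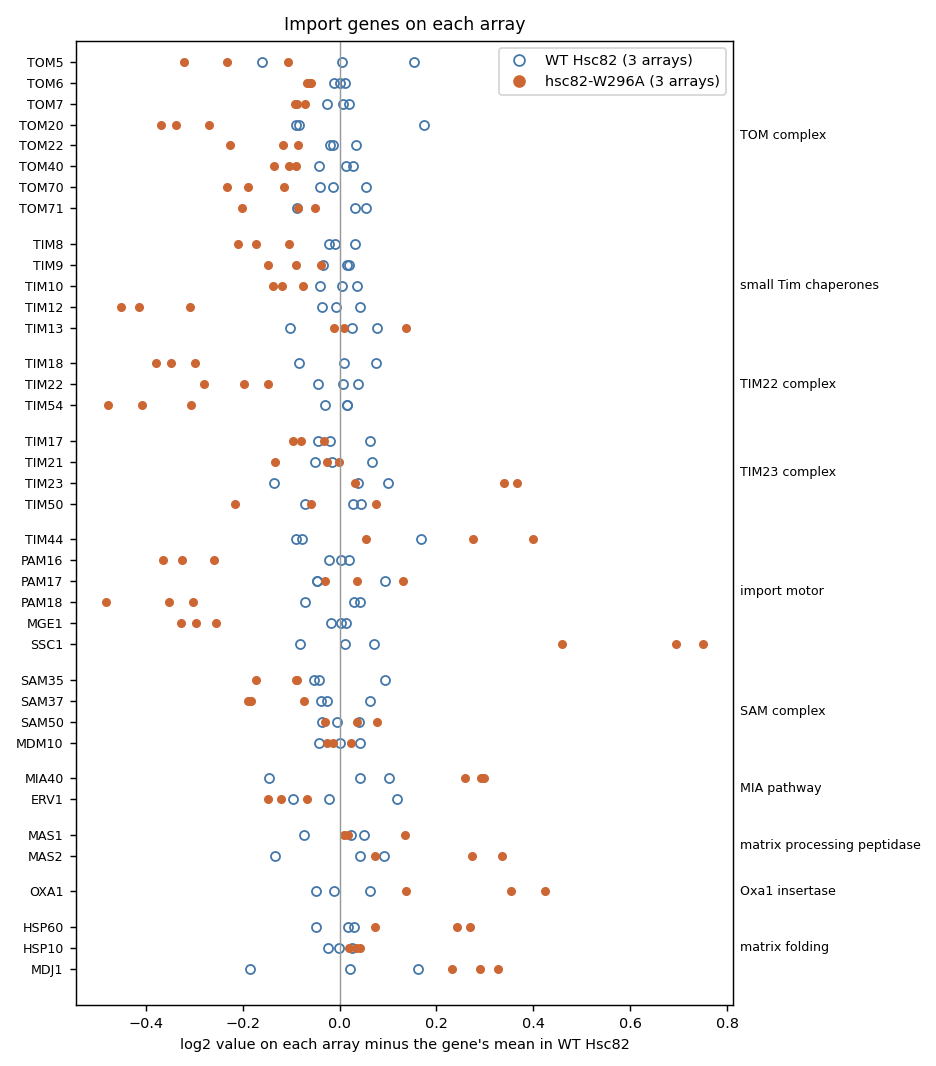
Each row is 1 import gene and each point 1 array, placed at its log2 value minus the gene's mean over the 3 WT Hsc82 arrays, with open circles for WT Hsc82 and filled circles for hsc82-W296A. SSC1 lies farthest to the right, and TIM54, TIM12, PAM18 and TIM18 lie to the left with the groups apart.

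The carrier translocase TIM22 of the inner membrane was lower in each of its 3 listed subunits, where 30.3% of all genes were called lower. TIM54, which holds a large domain in the intermembrane space, read 11.93, 11.88 and 11.93 in WT Hsc82 and 11.60, 11.50 and 11.43 in hsc82-W296A. It fell to 76.0% of its WT signal, a change of -0.40 (SE 0.055, adjusted p = 0.000719). TIM18, a membrane subunit related to Sdh4 of succinate dehydrogenase, read 12.48, 12.32 and 12.41 against 12.11, 12.06 and 12.02, a change of -0.34 (SE 0.055, adjusted p = 0.00146). The 2 genes thus had every hsc82-W296A array below every WT Hsc82 array. TIM22, the channel subunit itself, read 10.58, 10.63 and 10.66 against 10.35, 10.48 and 10.43, a change of -0.21 (SE 0.051, adjusted p = 0.0103), also without overlap. Of all genes 34.1% were lower without overlap. All 3 were called lower under the 4 other scalings too, with medians from -0.29 with the coding length trend removed to -0.54 in the matched rescaling. Under these 4 scalings 36% to 44.6% of all genes were called lower.

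Sdh3, which in yeast is shared between TIM22 and succinate dehydrogenase, went the other way. SDH3 read 12.66, 12.68 and 12.77 in WT Hsc82 and 13.44, 13.43 and 13.34 in hsc82-W296A, a rise of 0.70 (SE 0.052, adjusted p = 4.39e-05). As deposited, the RNA signal of the shared subunit therefore rose while that of its 3 TIM22 partners fell. SDH3 was not followed through the other scalings here. Its list of 35 respiratory genes had 35 called higher as deposited, after quantile normalization and with the coding length trend removed. The list had 33 called higher after median centring and 12 under the matched rescaling. Of all genes 28.5% to 37.1% were called higher over these settings. SDH3 is not among the 38 members and was measured with the respiratory chain genes.

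The small Tim proteins escort hydrophobic precursors across the intermembrane space, as the hexamers Tim9-Tim10 and Tim8-Tim13. Of the 5 genes, 2 fell and 3 were not called, where 30.3% of all genes were called lower. TIM12, the one that sits at the TIM22 complex, had values of 12.18, 12.15 and 12.23 in WT Hsc82 and 11.88, 11.77 and 11.73 in hsc82-W296A, and its change of -0.39 (SE 0.053, adjusted p = 0.000645) was the lowest of the 5. TIM8 read 12.89, 12.94 and 12.88 against 12.80, 12.73 and 12.69, a change of -0.16 (SE 0.046, adjusted p = 0.0186), which no longer passed without WT Hsc82 replicate 2, hsc82-W296A replicate 2 or hsc82-W296A replicate 3. The hexamer partners TIM9 and TIM10 changed by -0.09 and -0.11 without a call, although their groups did not overlap. TIM13 stood at 0.05, with an interval of the change from -0.11 to 0.20 at 95% confidence. Under the matched rescaling 4 of the 5 were lower, TIM13 being the exception, where 40.6% of all genes were called lower.

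The TOM complex, the common entry gate, had 8 of 8 genes below 0, beside 2497 of all 5449 genes. Of the 8, 3 were called lower, where 30.3% of all genes were. TOM20, a receptor for presequences, read 11.95, 11.69 and 11.69 in WT Hsc82 and 11.51, 11.44 and 11.41 in hsc82-W296A. It fell by 0.32 on the log2 scale (SE 0.080, adjusted p = 0.0102), and WT Hsc82 replicate 1 stood above the other 5 arrays. TOM70, the receptor on which cytosolic chaperones dock, read 13.35, 13.28 and 13.25 against 13.18, 13.11 and 13.06, a change of -0.18 (SE 0.051, adjusted p = 0.0184). TOM22, the central receptor, changed by -0.14 (SE 0.052, adjusted p = 0.0434). The TOM70 call ended without WT Hsc82 replicate 2, hsc82-W296A replicate 2 or hsc82-W296A replicate 3, and TOM22 was not called when any array except hsc82-W296A replicate 1 was left out, nor with the coding length trend removed (adjusted p = 0.0885).

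The other TOM genes had values that missed the threshold. TOM40, the pore, read 13.35, 13.28 and 13.34 in WT Hsc82 and 13.23, 13.22 and 13.19 in hsc82-W296A, a change of -0.11 (SE 0.042, adjusted p = 0.0539). TOM71, the paralog of TOM70, changed by -0.11 with overlapping groups. The small subunits TOM5, TOM6 and TOM7, which assemble and stabilise the pore, changed by -0.22, -0.06 and -0.08, and TOM5 passed with the replicate block (adjusted p = 0.00592). All 8 TOM genes were called lower under quantile normalization, median centring and the matched rescaling, and 4 were once the coding length trend was taken out. Of all genes 44.6%, 42.3%, 40.6% and 36% were called lower, in the same order.

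The presequence translocase TIM23 had no called gene among 4, where 67.3% of all genes were called. TIM17 and TIM23, the membrane core, changed by -0.07 and 0.25, TIM50, the receptor facing the intermembrane space, by -0.07, and TIM21, which contacts TOM and the respiratory chain, by -0.05. TIM23 read 11.13, 11.30 and 11.36 in WT Hsc82 and 11.29, 11.63 and 11.60 in hsc82-W296A. Replicate 1 was the lowest array of both groups there, and TIM23 passed with the replicate block (adjusted p = 0.00556) and with the coding length trend removed (adjusted p = 0.0314). Under median centring and the matched rescaling, TIM17, TIM21 and TIM50 were called lower, so a direction for this complex depends on the scaling. Of all genes 42.3% and 40.6% were called lower there.

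The import motor moved in opposite directions. SSC1, the matrix Hsp70 that pulls precursors in, read 12.89, 13.04 and 12.98 in WT Hsc82 and 13.43, 13.72 and 13.67 in hsc82-W296A. It rose 1.55-fold, a change of 0.63 (SE 0.086, adjusted p = 0.000645), the highest of the 38 genes. Of its regulators, MGE1, PAM18 and PAM16 were lower. Of the 6 motor genes 3 were thus called lower and 1 higher, where 30.3% and 37.1% of all genes were. MGE1, the nucleotide exchange factor that resets Ssc1, read 13.40, 13.37 and 13.39 against 13.13, 13.09 and 13.06, a change of -0.29 (SE 0.041, adjusted p = 0.000798). PAM18, the J-protein that stimulates the Ssc1 ATPase, read 12.23, 12.21 and 12.11 against 11.88, 11.83 and 11.70, a change of -0.38 (SE 0.062, adjusted p = 0.00160). PAM16, its J-like partner, read 11.79, 11.77 and 11.74 against 11.51, 11.44 and 11.40, a change of -0.32 (SE 0.045, adjusted p = 0.000855).

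None of these 4 called motor genes had overlapping groups, whereas TIM44 and PAM17 did. Of all genes 34.1% were lower without overlap and 39.5% higher without overlap. SSC1 stayed higher under each scaling, at 0.36 in the matched rescaling and 0.50 without the coding length trend. MGE1 ranged from -0.56 to -0.24 over the same scalings. TIM44, which anchors Ssc1 to the channel, read 11.75, 11.73 and 11.99 in WT Hsc82 and 11.88, 12.10 and 12.22 in hsc82-W296A, a change of 0.24 that missed the threshold (adjusted p = 0.0853) and passed with the replicate block (adjusted p = 0.0104). PAM17, which helps to assemble the motor, stood at 0.05 with overlapping groups. ECM10, a paralog of SSC1 that is also a mitochondrial Hsp70 and no member here, changed by -0.70 (SE 0.056, adjusted p = 6.05e-05). Paralogs can share hybridisation, and how far the probes of SSC1 and ECM10 do was not tested.

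**Figure D2:**
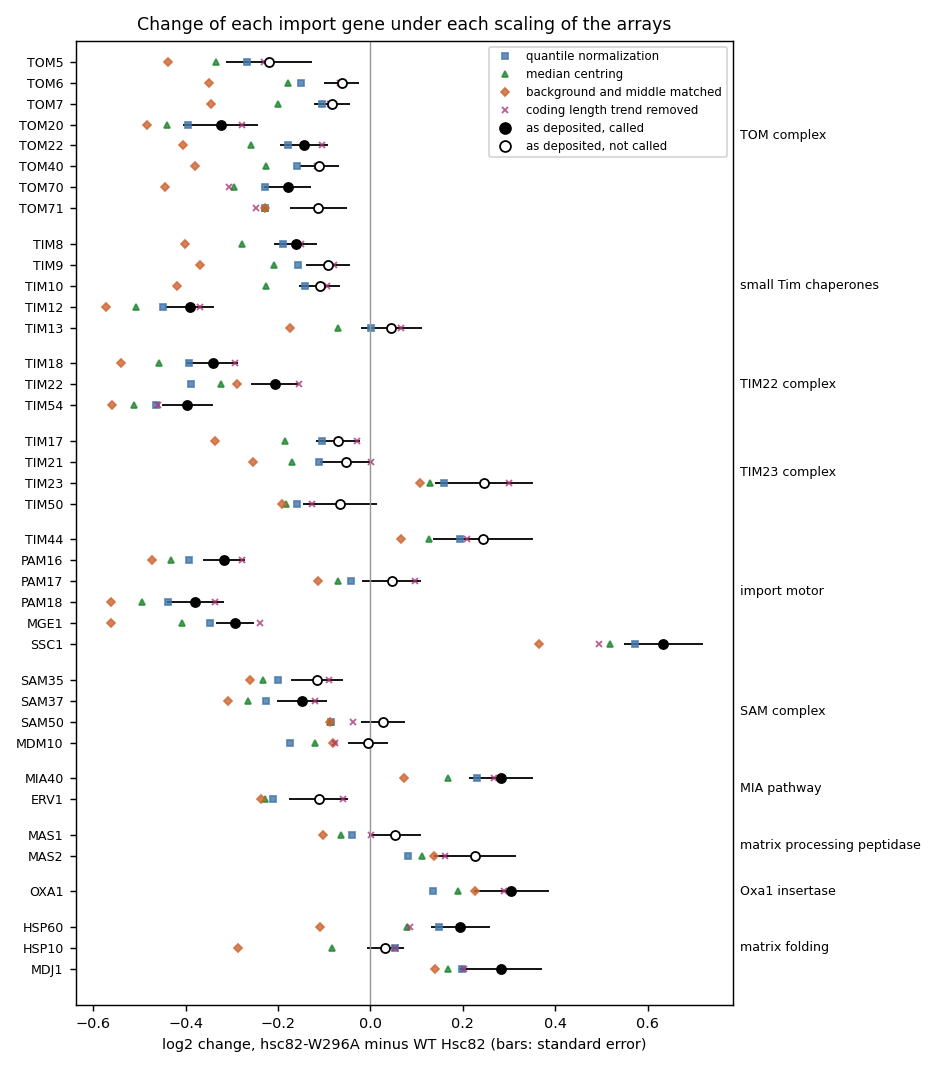
The log2 change of each import gene is drawn as a circle with its standard error, filled where the gene was called, and the coloured marks give the change under 4 other scalings of the arrays. SSC1 is right of 0 and the TIM22 and TOM genes are left of 0 under every scaling drawn. HSP60, HSP10, MAS1, TIM13, PAM17, SAM50 and, barely, TIM21 lie on both sides.

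Of the 4 genes of SAM, which assembles outer membrane proteins, 1 was called, where 67.3% of all genes were. SAM37, a subunit on the cytosolic face, read 11.81, 11.72 and 11.71 in WT Hsc82 and 11.67, 11.56 and 11.57 in hsc82-W296A, a change of -0.15 (SE 0.053, adjusted p = 0.0435). That call ended when any array except hsc82-W296A replicate 1 was left out, and with the coding length trend removed (adjusted p = 0.110). SAM35, which binds the β-barrel signal, changed by -0.12 without a call. SAM50, the β-barrel channel, and MDM10, shared with the ER contact complex ERMES, stood at 0.03 and -0.0047, and both groups overlapped in each. Their 95% intervals ran from -0.09 to 0.14 and from -0.11 to 0.10.

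The disulfide relay of the intermembrane space was split between its 2 genes. MIA40, the oxidoreductase that traps small Tim proteins and other cysteine-rich precursors, read 12.18, 12.37 and 12.43 in WT Hsc82 and 12.62, 12.58 and 12.61 in hsc82-W296A. It rose by 0.28 (SE 0.069, adjusted p = 0.00982), with the lowest hsc82-W296A array above the highest WT Hsc82 array. ERV1, the sulfhydryl oxidase that recharges Mia40, changed by -0.11 (SE 0.064, adjusted p = 0.162) with overlapping groups. Under the matched rescaling the MIA40 change was 0.07 and not called (adjusted p = 0.360), and the ERV1 change was -0.24 and called (adjusted p = 0.0117).

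The 6 genes that act after translocation, in the matrix or at its membrane, stood above 0 as deposited, as 2951 of all 5449 genes did. Of the 6, 3 were called higher, where 37.1% of all genes were. MAS1, HSP60 and HSP10 stood below 0 under the matched rescaling. MAS1 and HSP10 did so under median centring too, at -0.06 and -0.08, and MAS1 after quantile normalization, at -0.04. OXA1, the insertase that places proteins into the inner membrane from the matrix side, read 10.29, 10.33 and 10.40 in WT Hsc82 and 10.48, 10.69 and 10.76 in hsc82-W296A, a rise of 0.30 (SE 0.081, adjusted p = 0.0138). The call ended after quantile normalization, at 0.14 (adjusted p = 0.0996), and without hsc82-W296A replicate 2. MDJ1, the J-protein of Ssc1 in folding, read 11.16, 11.36 and 11.50 against 11.57, 11.67 and 11.63, a rise of 0.28 (SE 0.089, adjusted p = 0.0267). Its call ended after median centring (adjusted p = 0.0511), under the matched rescaling, at 0.14 (adjusted p = 0.118), and without WT Hsc82 replicate 2, hsc82-W296A replicate 2 or hsc82-W296A replicate 3.

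The chaperonin genes lay close to the top of the array scale, whose highest readings were 14.79 to 14.93 on the 6 arrays. HSP60 read 13.64, 13.71 and 13.70 in WT Hsc82 and 13.76, 13.95 and 13.93 in hsc82-W296A, a rise of 0.19 (SE 0.063, adjusted p = 0.0301). It was not called when any array except hsc82-W296A replicate 1 was left out, nor under the 4 other scalings, and under the matched rescaling it stood at -0.11. HSP10, its co-chaperonin, stood at 0.03 (SE 0.040, adjusted p = 0.492), and at -0.29 and called lower under the matched rescaling (adjusted p = 0.0115). No direction can therefore be given for the chaperonin. MAS1 and MAS2, the subunits of the processing peptidase, changed by 0.05 and 0.23 without a call, and MAS2 passed with the replicate block (adjusted p = 0.00382).

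Partners of 1 machine were also set against each other within each array, which removes any shift common to the array. Of 8 pairs, 5 had no overlap between the genotypes. Among single genes, 34.1% were lower without overlap and 39.5% higher without overlap. No such share was worked out for other pairs of genes, so the count is not read as particular to partners. MGE1 relative to SSC1 changed by -0.93, to 0.526 of its WT ratio, with an SD of 0.091 in WT Hsc82 and 0.19 in hsc82-W296A (n = 3). ERV1 relative to MIA40 changed by -0.39, with an SD of 0.059 and 0.039. TIM23 relative to TIM17 changed by 0.32, TIM13 relative to TIM8 by 0.21 and HSP10 relative to HSP60 by -0.16. The exact two-sided permutation test over 3 against 3 arrays gave p = 0.1 for each of the 5, the smallest it can give, and adjusted p = 0.160 over the 8 pairs. TIM10 relative to TIM9 changed by -0.02, TOM71 relative to TOM70 by 0.07 and MAS2 relative to MAS1 by 0.17, with overlapping groups and exact p = 0.8, 0.5 and 0.4. After quantile normalization 3 pairs had no overlap.

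**Figure D3:**
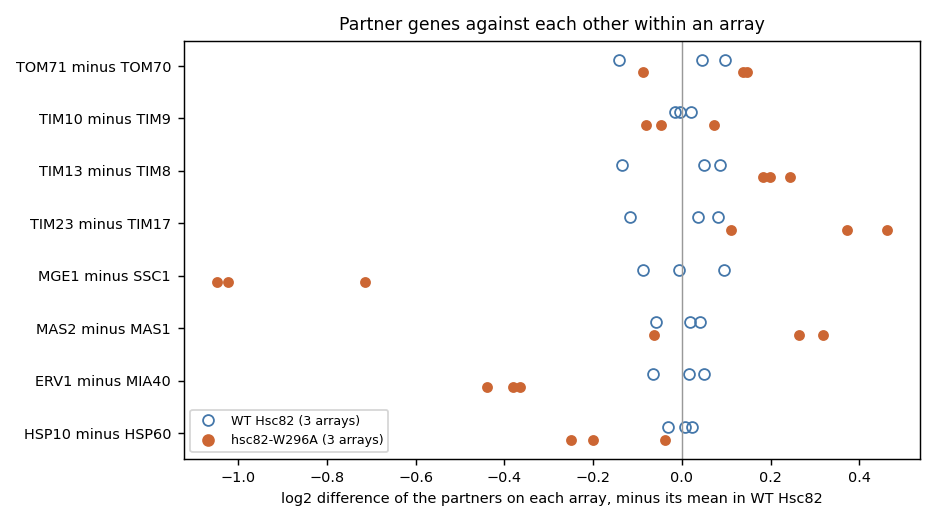
For 8 pairs of partner genes, each point is the log2 difference of the partners on 1 array minus the mean of that difference in WT Hsc82. MGE1 minus SSC1 lies farthest from 0 in hsc82-W296A, and TIM10 minus TIM9 lies around 0 in both genotypes.

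No short import gene was called higher. Of the 12 import genes with a coding length up to 500 bases, 0 rose and 4 fell, and of the 26 longer ones 5 rose and 8 fell. Over all genes up to 500 bases 200 of 659 rose and 221 fell, and of 4790 longer genes 1819 rose and 1429 fell. Change and coding length had a Spearman correlation of 0.371 over the 38 import genes and 0.194 over all 5449 genes, as a description, since the genes share the same 6 arrays. With the coding length trend removed the import genes again gave 12 lower and 5 higher.

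Other mitochondrial genes read on the same arrays differed in their counts. Among genes of the respiratory chain and the ATP synthase 35 of 35 rose, with a median of 0.42, and SDH1 rose by 1.67. Their products enter through the gates described above. Over all genes 37.1% rose and 30.3% fell. Of 66 mitochondrial ribosomal protein genes 19 rose and 5 fell, with a median of 0.02, and 42 were not called. Under the matched rescaling these counts were 12 higher and 0 lower of 35, and 5 higher and 29 lower of 66, beside 2 higher and 25 lower of the 38 import genes, where 32.0% of all genes were called higher and 40.6% lower. After quantile normalization, median centring and removal of the coding length trend, 35, 33 and 35 respiratory genes were higher and 0 lower. Of the ribosomal protein genes 15, 8 and 25 were higher and 15, 20 and 5 lower. Of all genes 28.5%, 31.2% and 35.9% were higher and 44.6%, 42.3% and 36% lower. These are counts on 1 set of arrays, and a difference between the lists was not tested.

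Import and processing factors outside the 38 ranged from -0.70 to 2.99. Of 24 such genes 9 rose and 5 fell, or 37.5% and 20.8% beside 37.1% and 30.3% of all genes, with a median of 0.09. OM45, an outer membrane protein facing the intermembrane space, had the highest change of the list, from 10.35 ± 0.15 (SD, n = 3) to 13.34 ± 0.071, a rise of 2.99 (SE 0.083, adjusted p = 1.23e-06). OM14, an outer membrane receptor for ribosomes, rose by 1.17, and TAM41, a cardiolipin synthesis enzyme whose loss disturbs TIM23, rose by 0.91. After quantile normalization 8 of the 24 rose and 9 fell, beside 28.5% and 44.6% of all genes.

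**Figure D4:**
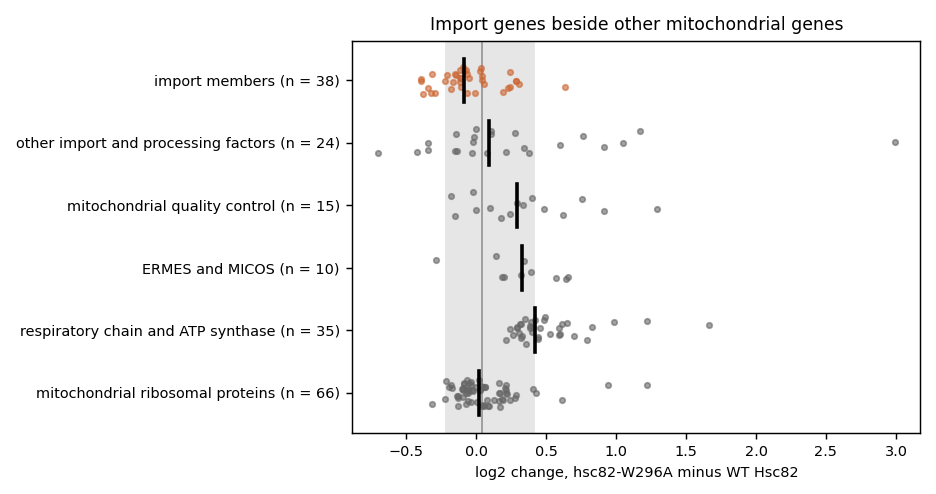
Each point is 1 gene at its log2 change, hsc82-W296A minus WT Hsc82, in 6 lists, with a black bar at the list median, a grey band for the middle 50% of all genes and a grey line at their median. The 38 import genes lie between -0.40 and 0.63, and the 35 respiratory genes are all above 0.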

How the data were processed

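Total RNA of 6 cultures was labelled as biotinylated cRNA and hybridised to Affymetrix arrays, per the labels' protocols. The deposited values are taken as log2 signals from their range, and as normalized by the authors from their nearly equal array means. Limma is named in the submitters' processing notes, in no stated role. The sources used here do not give the background correction, normalization or summarization. Arrays have no depth, so their number and the signal over background limit the precision.

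The platform annotation gave 1 gene symbol to 7244 of 10928 probe sets, several to 1 and none to 3683. Matching gene IDs to a RefSeq table of assembly R64 gave 5498 probe sets of 5449 S. cerevisiae genes, with 12 symbols updated, and 1746 probe sets of another species. Of a gene's probe sets the one with the highest mean was kept. Limma 3.58.1 (lmFit, eBayes; R 4.3.3) compared the genotypes without a block. Pairs used exact permutation tests. The scripts were tested on simulated data. All 38 members could be named, and up to 4 genes of each other list with the smallest adjusted p. The members, lists and alternatives were chosen with earlier results of these data known. The samples are labelled biological replicates.

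Same-numbered arrays deviated together from their group means, at correlations of 0.405, 0.152 and 0.361. Only the replicate block treated them as pairs, on that basis and with no label saying so. The main fit and the exact permutation tests did not use this pairing. Differently numbered arrays reached 0.138. Figures used Python 3.11.15, pandas 2.3.3, numpy 2.4.6 and matplotlib 3.10.9.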

Additional observations from a re-analysis of the deposited data

How the results depend on the processing

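The 12 lower and 5 higher import genes, their median change of -0.09 and the 5 partner pairs without overlap were recomputed under 19 alternatives. Quantile normalization gave 22 lower, 3 higher, a median of -0.16 and 3 pairs. Median centring gave 24 lower, 3 higher and a median of -0.20, and the rescaling with background and middle matched gave 25 lower, 2 higher and a median of -0.29. An intensity trend gave 18 lower and 8 higher, array weights, whose iteration stopped before its tolerance was met, 19 lower and 8 higher, and no moderation 14 lower and 3 higher. The replicate block, which pairs arrays by number, gave 13 lower, 8 higher and 6 pairs that moved 1 way in every replicate. It added calls for TOM5, TIM23, TIM44 and MAS2 and ended none. Leaving out 1 array at a time gave 8 to 13 lower, 2 to 8 higher, medians of -0.0993 to -0.0628 and 5 to 7 pairs. Under that matched rescaling HSP60 stood at -0.11 (adjusted p = 0.219) and HSP10 at -0.29 (adjusted p = 0.0115), the opposite sign to the values as deposited. In 20 of 722 combinations of a member and an alternative the sign turned with no call on either side. Of the 21 genes not called, 4 were called under none of the 19 alternatives. The causes of these moves were not tested. Leaving out dim probe sets or those with shared IDs, fitting all probe sets, a robust prior, the mean of probe sets per gene and the coding length trend left these counts within 1.5 times. Signal near the top of the scale, as for HSP60, HSP10 and TIM10, may limit what changes can be read there, which was not tested.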

Other observations

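MICOS genes, outside the import machinery, were higher in hsc82-W296A as deposited. Of 10 genes of MICOS, which forms the cristae junctions, and ERMES, which ties mitochondria to the ER, 8 rose and 1 fell, beside 37.1% and 30.3% of all genes. MIC60 rose by 0.66 (SE 0.055, adjusted p = 7.57e-05), MIC26 by 0.64, MIC27 by 0.57 and MIC10 by 0.39. The 4 ERMES genes of this list were split, with 2 higher, 1 lower and 1 not called. MDM10, shared with ERMES and counted with SAM above, stood at -0.0047 without a call. Under the matched rescaling 4 of the 10 rose and 1 fell, beside 32.0% and 40.6% of all genes. After quantile normalization, median centring and removal of the coding length trend, 6, 6 and 7 rose and 2, 1 and 1 fell. Of all genes 28.5%, 31.2% and 35.9% were called higher there and 44.6%, 42.3% and 36% lower.

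Of 15 genes of mitochondrial quality control, 10 rose and 2 fell, or 66.7% and 13.3%, beside 37.1% and 30.3% of all genes. MGR1, an adaptor of the i-AAA protease Yme1, rose from 8.78 ± 0.15 (SD, n = 3) to 10.08 ± 0.15, a change of 1.29 (adjusted p = 6.01e-05). HSP78, a matrix disaggregase that works with Ssc1, rose by 0.91, AFG3, a subunit of the m-AAA protease, by 0.76, and CIS1, which acts in the response to clogged import pores, by 0.62. CIS1 was above background on some arrays only, and its rise is read against that floor. Under the matched rescaling 6 of the 15 rose and 2 fell, beside 32.0% and 40.6% of all genes. After quantile normalization, median centring and removal of the coding length trend, 9, 8 and 9 rose and 2, 2 and 3 fell. Of all genes 28.5%, 31.2% and 35.9% were called higher there and 44.6%, 42.3% and 36% lower.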
